A study of Homo sapiens with 4 samples.

Results

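The neuronal cytoskeleton genes MAP2, MAPT, MAP1B, TUBB3, STMN2, GAP43, NEFL, NEFM, INA and DCX were described by RNA-seq in BE(2)C cells before and after knockdown of MYCN. They were taken by gene symbol from a written list of neurofilament, microtubule and growth cone genes, chosen with earlier results of these data known. All 10 symbols were found among the 26364 genes listed in each sample, and all 10 passed the filter on low values that left 11411 genes for testing. BE(2)C is a human neuroblastoma cell line with amplified MYCN, which encodes the oncogenic transcription factor N-Myc. In the control condition (Ctrl) cells were transfected with an siRNA that targets no human gene, and in the knockdown condition (MYCN KD) with an siRNA directed at MYCN, both with Lipofectamine and both at 80 nM according to the sample labels (the methods of the study state a lower final concentration), and RNA was taken after the transfection. Each condition had 2 samples. The comparison rests on 1 cell line and 1 siRNA against MYCN, and the methods of the study call its RNA-seq samples biological replicates without saying how they were grown. The p-values measure only the spread between these samples.

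Neurons keep the shape of their axons and dendrites with microtubules, neurofilaments and actin. Microtubules are polymers of alpha and beta tubulin, and microtubule-associated proteins bind and stabilise them, while stathmins bind free tubulin and destabilise them. Neurofilaments are the intermediate filaments of axons, built mainly from light, medium and heavy chains together with alpha-internexin or peripherin. Neuroblastoma arises from precursors of the sympathetic nervous system, and its cells express many of these genes, several of which serve as markers of neuronal differentiation.

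TUBB3, MAP1B, DCX and STMN2 were higher after MYCN knockdown, with mean levels from 1.55 (TUBB3) to 1.98 (DCX) times those of Ctrl. The other 6 genes did not pass the test, with changes from -0.16 (NEFM) to 0.30 (MAP2) on the log2 scale. In bulk RNA, a higher level in each cell and a larger share of cells that express a gene cannot be told apart. Of the microtubule genes, TUBB3, MAP1B and DCX rose and MAP2 and MAPT did not pass the test, and neither did the 3 intermediate filament genes NEFL, NEFM and INA. To show the sequence next to the start of genes that did and did not pass, the 250 bases upstream of 1 RefSeq start are given below for MAP1B, TUBB3 and DCX, which rose, and for INA, which did not pass the test. Coordinates refer to GRCh38.p14, and each sequence is written 5′ to 3′ on the strand of the gene. Capitals mark the letters of 5 short motifs searched on both strands, the E-box variant CACGCG, the TATA box TATAAA, the CCAAT box CCAAT, the GC box GGGCGG and the canonical E-box CACGTG, the sequence best known for binding Myc proteins.
MAP1B, chr5:72107225-72107474, plus strand: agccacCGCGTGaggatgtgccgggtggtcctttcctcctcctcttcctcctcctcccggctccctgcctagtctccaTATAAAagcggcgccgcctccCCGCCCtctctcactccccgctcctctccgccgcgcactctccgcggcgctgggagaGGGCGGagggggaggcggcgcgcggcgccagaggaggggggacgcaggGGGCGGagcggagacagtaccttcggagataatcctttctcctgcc
TUBB3, chr16:89923092-89923341, plus strand: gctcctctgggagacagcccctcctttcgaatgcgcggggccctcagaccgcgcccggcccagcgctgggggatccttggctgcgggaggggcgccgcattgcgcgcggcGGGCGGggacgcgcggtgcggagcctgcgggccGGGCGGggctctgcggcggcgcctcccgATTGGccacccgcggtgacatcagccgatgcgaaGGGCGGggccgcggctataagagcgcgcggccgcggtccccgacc
DCX, chrX:111412193-111412442, minus strand: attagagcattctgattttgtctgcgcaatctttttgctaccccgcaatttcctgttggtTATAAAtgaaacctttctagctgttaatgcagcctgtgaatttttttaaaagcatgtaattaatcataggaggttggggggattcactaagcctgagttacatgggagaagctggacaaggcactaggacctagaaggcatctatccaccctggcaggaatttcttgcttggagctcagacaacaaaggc
INA, chr10:103276888-103277137, plus strand: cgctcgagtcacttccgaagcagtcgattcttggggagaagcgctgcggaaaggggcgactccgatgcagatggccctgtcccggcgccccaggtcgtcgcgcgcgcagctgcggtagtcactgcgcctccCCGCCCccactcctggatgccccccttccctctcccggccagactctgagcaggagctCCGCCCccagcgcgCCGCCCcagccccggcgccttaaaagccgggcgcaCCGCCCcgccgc

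The RefSeq promoter table held 12 such windows for 6 of the 10 genes (MAP2, GAP43, MAP1B, INA, TUBB3 and DCX), and MAPT, STMN2, NEFL and NEFM had none. The letters CACGTG were in 0 of the 12 windows, against 6.34% of all 35116 windows of the same length. CACGCG was in 1 window, that of MAP1B shown above, against 9.72% of all. TATAAA was in 3 windows, of MAP1B and DCX, against 10.72%. CCAAT was in 4 windows, 1 each of DCX, GAP43, MAP2 and TUBB3, against 32.01%, and GGGCGG in 4 windows, of INA, MAP1B and TUBB3, against 42.64%. The palindromic core of the cAMP response element, TGACGTCA, was also searched, and it was in 0 of the 12 windows and in 1.65% of all. The GC content ran from 37.6% (MAP2) to 78.0% (TUBB3), around a median of 58.0% over all windows, and the genes that rose lay on both sides of that median, with DCX at 42.0% to 44.0% and MAP1B at 60.4% and 70.0%. Several windows of a gene can overlap, and a match of letters is a description and not a site of binding.

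MYCN itself was at 1068 and 1073 RPKM in Ctrl and at 720.2 and 718.0 RPKM in MYCN KD, where RPKM is a read count scaled by exon length and by the total of reads in the sample. Its mean level in MYCN KD was 0.672 of that in Ctrl, and its log2 fold change was -0.57 (SE 0.0286, adjusted p = 0.00361 by limma with Benjamini-Hochberg adjustment). The knockdown was therefore partial in these RNA values. Over the alternatives run, the log2 fold change of MYCN ran from -0.713 to -0.378. The exons of MYCN overlap those of MYCNOS on the other strand, and whether reads of MYCNOS were counted for MYCN was not tested. The paper also reports lower MYCN RNA by qPCR and lower protein by Western blot. The totals behind the RPKM values, recovered from the size of 1 read, lay between 29055819 and 34142988 reads. All 10 markers of sympathetic neuroblasts were above 1 RPKM, and their summed level was 3555 to 3860 RPKM in Ctrl, against 5017 to 5437 RPKM in MYCN KD. Of the markers of other cell types, 2 of 7 of Schwann cells and glia, 4 of 7 of fibroblasts (COL1A1, DCN, LUM and PDGFRB) and 0 of 5 of endothelium and blood were above 1 RPKM on average. The glial sum was 6.45 to 6.77 RPKM in Ctrl, against 11.0 to 11.6 RPKM in MYCN KD, the fibroblast sum 23.0 to 25.1 and 28.5 to 31.1 RPKM, and the endothelial and blood sum 0.512 to 0.624 and 0.821 to 0.968 RPKM. The defining genes PRRX1 and HBB were listed at 0 in every sample. These sums were higher in MYCN KD, as were the 4 genes called higher, and their part in the results was not tested.

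All values below are RPKM, which is per length and so allows levels of different genes to be set side by side. In Ctrl the order of mean levels was TUBB3 (419.4 RPKM), NEFM (216.3), NEFL (152.4), STMN2 (142.8), INA (85.5), GAP43 (66.7), MAP1B (59.8), MAP2 (27.4), DCX (6.40) and MAPT (1.21). By the mean over all 4 samples, TUBB3 was higher than 99.2% of the tested genes, and MAPT was higher than only 2.2% of them. The level of MAPT is doubtful, as described below. The replicates of NEFL and STMN2 overlapped in Ctrl, as did those of GAP43 and MAP1B, while the other neighbours in this order did not. In MYCN KD, STMN2 (231.4 RPKM) lay above NEFM (193.3 RPKM) and MAP1B (115.8 RPKM) above INA (78.5 RPKM), in each case without overlap of the samples.

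**Figure D1:**
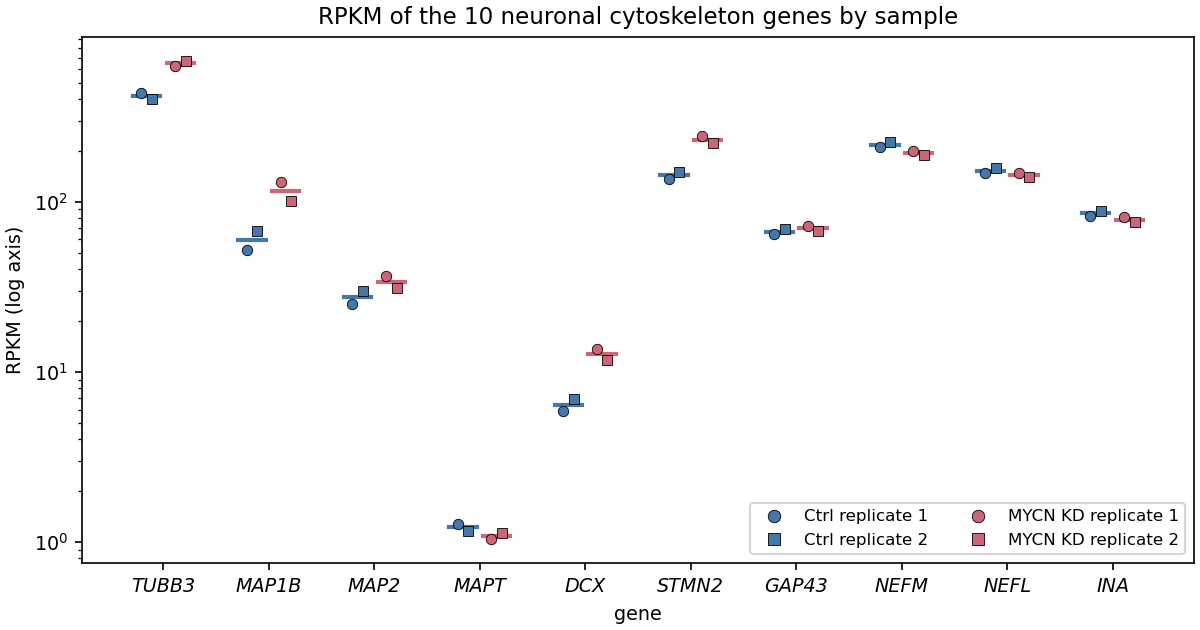
RPKM in each sample on a log axis for the 10 genes, with circles for replicate 1 and squares for replicate 2 of Ctrl (blue) and MYCN KD (red) and a short line at each group's mean (n = 2). MAP1B, TUBB3, STMN2 and DCX show both MYCN KD points well above both Ctrl points, with MAP1B at 51.9 and 67.6 RPKM in Ctrl against 101.1 and 130.5 RPKM in MYCN KD.

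Of the tubulin genes, TUBB3 encodes the beta tubulin isotype that is characteristic of neurons. It lies on the plus strand of chromosome 16 (89987800 to 90005169, GRCh37, 4 exons in the transcript that Ensembl marks as canonical). TUBB3 was at 436.1 and 402.6 RPKM in Ctrl and at 625.1 and 675.1 RPKM in MYCN KD. Both MYCN KD samples were above both Ctrl samples, and the gap was several times the spread within a condition. The mean rose from 419.4 ± 23.7 to 650.1 ± 35.3 RPKM (SD, n = 2), and the log2 fold change was 0.63 (95% confidence interval 0.43 to 0.83, SE 0.0668, limma adjusted p = 0.00820). From 25827 to 41902 reads stood behind each of these values, so that counting error was small beside the spread between samples.

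The other beta tubulins set TUBB3 in its family. TUBB3 made up 32.9% and 33.0% of the summed RPKM of 6 beta tubulins (TUBB2A, TUBB2B, TUBB3, TUBB4A, TUBB4B and TUBB6) in Ctrl, and 38.8% and 38.9% in MYCN KD. The share therefore moved from 33.0% ± 0.0456 to 38.8% ± 0.0693 (SD, n = 2), without overlap, while an exact permutation test of 2 samples against 2 cannot give a two-sided p below 0.3333. This share is a ratio within a sample and does not depend on the totals used for scaling. The reads behind it had been adjusted before deposit, so the SDs of the share may understate its error. The most abundant isotype, TUBB4B, which is expressed in most cell types, did not pass the test, at 737.1 and 661.0 RPKM in Ctrl, against 742.7 and 825.7 RPKM in MYCN KD (log2 fold change 0.17, limma adjusted p = 0.201). TUBB2A, an isotype abundant in brain, rose from 51.5 and 53.3 RPKM to 106.3 and 102.6 RPKM (log2 fold change 0.98, adjusted p = 0.00359), and its share of the 6 was 3.89% and 4.37% in Ctrl, against 6.59% and 5.91% in MYCN KD. TUBB2B rose by 0.39 and TUBB6 by 0.44 on the log2 scale, whereas TUBB4A, at 2.65 to 2.99 RPKM, did not pass the test. The coding sequences of TUBB2A and TUBB2B are nearly identical, so the division of reads between these genes is uncertain. TUBB, a widely expressed isotype, was left out of the sum because its level is doubtful. Its RPKM rested on an exon length of 24937 bases, against 3412 bases for its longest annotated transcript, and was only 3.91 to 4.12. TUBB6 was kept in the sum, although its exon length of 3309 bases also exceeded the 2163 bases of its longest annotated transcript.

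**Figure D2:**
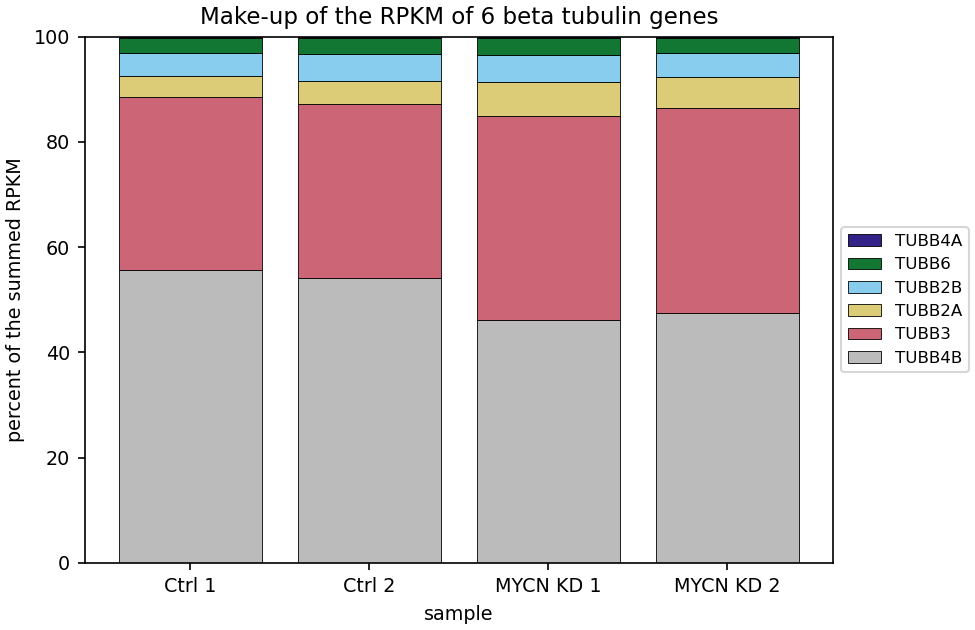
Share of each of 6 beta tubulins in their summed RPKM, in percent, as stacked bars for each of the 4 samples. TUBB3 takes 32.9% and 33.0% in the Ctrl samples and 38.8% and 38.9% in the MYCN KD samples, and TUBB4B takes 54.1% to 55.6% and 46.1% to 47.6%.

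Among the microtubule-associated proteins, MAP1B is made early in growing axons. MAP1B (chromosome 5, 71403061 to 71505392, plus strand, 7 exons) was at 51.9 and 67.6 RPKM in Ctrl and at 130.5 and 101.1 RPKM in MYCN KD. The groups did not overlap, but the replicates of each condition lay farther apart than for any of the other 9 genes, with a difference of 0.37 in each condition on the log2 scale. The mean rose from 59.8 ± 11.1 to 115.8 ± 20.8 RPKM (SD, n = 2), and the log2 fold change was 0.94 with a 95% confidence interval of 0.35 to 1.53 (SE 0.200, limma adjusted p = 0.0317). The call was lost when genes of low RPKM were also tested (adjusted p = 0.0528).

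DCX encodes doublecortin, a microtubule-binding protein of migrating and immature neurons. The gene lies on the minus strand of chromosome X (110537007 to 110655657, 7 exons). DCX was at 5.90 and 6.90 RPKM in Ctrl and at 13.6 and 11.7 RPKM in MYCN KD, and so had the largest ratio of mean levels among the 10 genes, 1.98. Its lower MYCN KD sample was still well above its higher Ctrl sample. The mean rose from 6.40 ± 0.709 to 12.7 ± 1.37 RPKM (SD, n = 2), and the log2 fold change was 0.89 (95% confidence interval 0.55 to 1.22, SE 0.114, limma adjusted p = 0.0115). This value lies below that of MAP1B because 1 RPKM was added before the logarithm, which shrinks the change of low genes. From 1950 to 3841 reads stood behind each value.

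MAP2 is the classical marker of dendrites, and MAPT encodes tau, which binds microtubules mainly in axons. MAP2 (chromosome 2, 210288771 to 210598871, plus strand, 16 exons) was at 25.0 and 29.8 RPKM in Ctrl and at 36.8 and 31.1 RPKM in MYCN KD. The groups did not overlap, but the closest samples of the 2 conditions differed by less than the replicates did. The means were 27.4 ± 3.37 and 33.9 ± 4.03 RPKM (SD, n = 2), with a log2 fold change of 0.30 (95% confidence interval -0.09 to 0.69, SE 0.132, limma adjusted p = 0.148). Leaving out 1 library changed this result, with the lone sample of a condition assumed to vary like the other pair. Without Ctrl replicate 2 the log2 fold change was 0.42 (adjusted p = 0.00324) and without MYCN KD replicate 2 it was 0.42 (adjusted p = 0.00576), whereas without Ctrl replicate 1 or MYCN KD replicate 1 it was 0.18 (adjusted p = 0.262 and 0.28). The ratio of MAP1B to MAP2 was 2.07 and 2.27 in Ctrl, against 3.55 and 3.25 in MYCN KD, without overlap (exact permutation p = 0.3333, the smallest possible, two-sided).

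MAPT (chromosome 17, 43971893 to 44105700, plus strand, 13 exons) was the lowest of the genes, at 1.27 and 1.16 RPKM in Ctrl and at 1.04 and 1.13 RPKM in MYCN KD. Both MYCN KD samples were below both Ctrl samples by a margin smaller than the spread between replicates. The means were 1.21 ± 0.0724 and 1.09 ± 0.0642 RPKM (SD, n = 2), with a log2 fold change of -0.09 (95% confidence interval -0.23 to 0.06, SE 0.0487, limma adjusted p = 0.222), so a change as large as that of MAP1B lay outside the interval. The 1 RPKM added before the logarithm shrank this change, which was -0.15 with 0.1 RPKM added (limma adjusted p = 0.219). From 412 to 589 reads stood behind each value. The level of MAPT is doubtful for a reason that touches all 4 samples alike. The exon length behind its RPKM was 13627 bases, 2.00 times the 6815 bases of its longest annotated transcript, whereas this ratio had a median of 0.996 over 10538 tested genes and was at least 1.5 for only 1.48% of them. From PLEKHM1 to KANSL1, the stretch of chromosome 17 around MAPT, 4 of 7 genes had a ratio of at least 1.5. The hg19 assembly carries alternate haplotype copies of this stretch. Whether reads of MAPT were lost to such copies was not tested. The exons of MAPT also overlap MAPT-AS1 on the other strand, which was listed at 0 in all 4 samples.

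The paralogs MAP1A and MAP4 were measured beside these genes. MAP1A, which is made later than MAP1B in maturing neurons, rose from 70.2 and 63.8 RPKM to 84.2 and 92.3 RPKM (log2 fold change 0.39, limma adjusted p = 0.0276). MAP4, found mainly outside neurons, rose from 30.4 and 29.1 RPKM to 36.0 and 37.5 RPKM (log2 fold change 0.30, adjusted p = 0.0159). Both changes were smaller than that of MAP1B, and whether they differed from it was not tested.

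STMN2 and GAP43 encode membrane-bound proteins of the growth cone that are abundant while axons extend. STMN2 (chromosome 8, 80523352 to 80578393, plus strand, 5 exons), a neuronal stathmin, was at 135.9 and 149.6 RPKM in Ctrl and at 242.2 and 220.6 RPKM in MYCN KD. Every MYCN KD sample was far above every Ctrl sample. The mean rose from 142.8 ± 9.66 to 231.4 ± 15.2 RPKM (SD, n = 2), and the log2 fold change was 0.69 (95% confidence interval 0.46 to 0.92, SE 0.0781, limma adjusted p = 0.00908), with 10699 to 16218 reads behind each value.

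GAP43 (chromosome 3, 115342357 to 115440337, plus strand, 3 exons) was at 64.6 and 68.8 RPKM in Ctrl and at 72.0 and 67.7 RPKM in MYCN KD. The groups overlapped, and the difference between them was close to the spread between replicates. The means were 66.7 ± 3.01 and 69.8 ± 3.02 RPKM (SD, n = 2), with a log2 fold change of 0.07 (95% confidence interval -0.10 to 0.23, SE 0.0565, limma adjusted p = 0.394). A rise as large as that of STMN2 lay outside this interval. The ratio of STMN2 to GAP43 was 2.105 and 2.173 in Ctrl, against 3.36 and 3.26 in MYCN KD, without overlap (exact permutation p = 0.3333, two-sided). The length behind the values of GAP43 could be recovered only up to a multiple, so at least 550 reads stood behind each of them.

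Within the stathmin family, STMN1, the widely expressed member, was at 239.4 and 249.8 RPKM in Ctrl, against 257.6 and 247.4 RPKM in MYCN KD and did not pass the test (log2 fold change 0.05, limma adjusted p = 0.429). STMN3 rose from 215.7 and 199.2 RPKM to 258.4 and 279.1 RPKM (log2 fold change 0.37, adjusted p = 0.0224), and the scarce STMN4 from 1.05 and 1.14 RPKM to 2.05 and 1.90 RPKM (log2 fold change 0.51, adjusted p = 0.00728). The share of STMN2 in the 4 stathmins was 23.0% and 24.9% in Ctrl, against 31.9% and 29.5% in MYCN KD, whereas that of STMN1 was 40.4% and 41.7% in Ctrl, against 33.9% and 33.0% in MYCN KD. Neither share overlapped between conditions (exact permutation p = 0.3333 for each, two-sided).

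NEFL, NEFM and INA encode the light and medium neurofilament chains and alpha-internexin, which assemble with one another. NEFL (chromosome 8, 24808468 to 24814235, minus strand, 5 exons) was at 147.4 and 157.5 RPKM in Ctrl and at 148.1 and 139.1 RPKM in MYCN KD. NEFM, which neighbours it (chromosome 8, 24771271 to 24776611, plus strand, 3 exons), was at 208.8 and 223.8 RPKM in Ctrl and at 199.7 and 187.0 RPKM in MYCN KD. INA (chromosome 10, 105036895 to 105050103, plus strand, 3 exons) was at 82.7 and 88.3 RPKM in Ctrl and at 81.0 and 76.0 RPKM in MYCN KD. NEFL overlapped between conditions, and NEFM and INA were lower in both MYCN KD samples by margins no larger than the spread between replicates.

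None of these 3 genes passed the test. The means of NEFL were 152.4 ± 7.08 and 143.6 ± 6.36 RPKM, those of NEFM 216.3 ± 10.6 and 193.3 ± 9.00 RPKM, and those of INA 85.5 ± 3.99 and 78.5 ± 3.49 RPKM (SD, n = 2). The log2 fold changes were -0.09 for NEFL (95% confidence interval -0.25 to 0.08, limma adjusted p = 0.285), -0.16 for NEFM (-0.34 to 0.01, adjusted p = 0.103) and -0.12 for INA (-0.29 to 0.05, adjusted p = 0.166). Rises of the size seen for TUBB3 lay outside all 3 intervals. The exons of INA overlap those of NT5C2 on the other strand, and no source states whether reads were counted by strand. NT5C2 was at 9.85 to 14.1 RPKM.

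The spread between replicates of these 3 genes arose when their reads were divided by the totals. NEFL had 19331 and 19334 reads in Ctrl and 16522 and 16525 in MYCN KD, so that replicates differed by 3 reads. INA had 9121 and 9125 reads in Ctrl and 7600 in each MYCN KD sample, and NEFM 25861 and 25954 reads in Ctrl and 21047 and 20984 in MYCN KD. The total of replicate 1 exceeded that of replicate 2 by 6.77% in Ctrl and by -6.10% in MYCN KD. Dividing by it set the replicates apart. For TUBB3 (29868 and 25827 reads in Ctrl, 36436 and 41902 in MYCN KD) and MAP1B (21242 and 25882, then 45416 and 37466) the reads themselves differed between replicates. The deposited values had been adjusted by the authors before deposit, and among all tested genes 29.34% (Ctrl) and 31.35% (MYCN KD) had replicates within 1 counting SD of each other.

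When the reads were not divided by the totals, a scaling added once the data had been seen, the log2 fold changes were -0.22 for NEFL (limma adjusted p = 0.0254), -0.30 for NEFM (adjusted p = 0.0153) and -0.26 for INA (adjusted p = 0.0171), and all 3 passed the test. Under that scaling 31.5% of all tested genes were called lower and 16.6% higher, so that 3 of 10 was close to the share of all genes. The scaling moved the median of all tested genes by -0.119. Relative to this median the values were -0.13, -0.21 and -0.17, against -0.11, -0.19 and -0.15 with the deposited scaling, so the size hardly changed while the spread shrank. With quantile normalization NEFL turned to 0.00 (adjusted p = 0.975). Whether the neurofilament genes were called lower therefore depended on the scaling, while NEFM and INA stayed below 0 under each scaling tried. Pairing the replicates crosswise at the deposited scaling called all 3 lower. It also called 5262 of all 11411 tested genes lower and 5910 higher. With nearly every gene called, that pairing cannot set these 3 genes apart. TUBB3, MAP1B, STMN2 and DCX rose under each scaling tried.

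**Figure D3:**
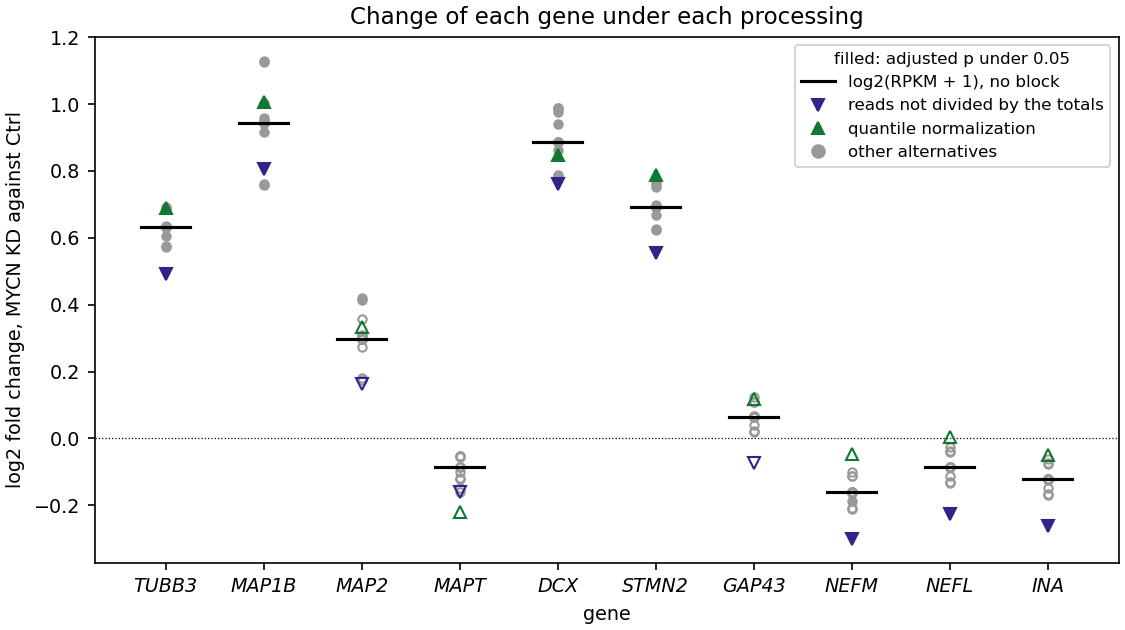
Log2 fold change (MYCN KD against Ctrl) of each gene under the processing alternatives other than a crossed pairing of replicates, filled where the adjusted p was under 0.05 and open elsewhere. A bar marks the value reported here, downward triangles the reads not divided by the totals and upward triangles quantile normalization. TUBB3 stays between 0.49 and 0.69 and DCX between 0.76 and 0.99, whereas NEFL runs from -0.22 to 0.00 and passes the test, among those plotted, only when reads are not divided by the totals.

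Ratios between the 3 genes within a sample do not depend on the totals. The ratio of NEFM to NEFL was 1.42 in each Ctrl sample and 1.35 and 1.34 in MYCN KD. The ratio of INA to NEFL was 0.561 in each Ctrl sample, against 0.547 in both MYCN KD samples. Both ratios were thus lower in MYCN KD by a small amount, without overlap, and the exact permutation test could not give a p below 0.3333. The amount was larger than the spread between replicates, but that spread may understate the error of the ratios. In each condition the replicate reads of all 3 genes lay within 1 counting SD of each other. Whether the shifts were larger than counting error was not tested. The 3 genes together stood at 1.01 and 1.17 times TUBB3 in Ctrl and at 0.686 and 0.596 times TUBB3 in MYCN KD, again without overlap.

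Of the other 4 intermediate filament genes named here, 1 fell and 3 rose. NEFH, the heavy neurofilament chain, fell from 93.2 and 92.7 RPKM to 48.1 and 48.4 RPKM (log2 fold change -0.93, SE 0.0311, limma adjusted p = 0.00359). PRPH, which encodes peripherin, the intermediate filament protein of peripheral neurons, rose from 74.0 and 64.1 RPKM to 123.8 and 142.1 RPKM (log2 fold change 0.93, SE 0.111, adjusted p = 0.0100). VIM and NES, filament genes of immature and progenitor cells, also rose, VIM from 154.0 and 159.4 to 235.0 and 227.2 RPKM (log2 fold change 0.56) and NES from 42.9 and 46.5 to 77.8 and 72.0 RPKM (log2 fold change 0.73). The neuronal intermediate filaments therefore held a gene that fell strongly, a gene that rose strongly and 3 that did not pass the test.

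Counted together, 4 of the 10 genes were called higher, against 25.3% of all 11411 tested genes, and 0 were called lower, against 22.8%. At an unadjusted p under 0.05, 0 were lower by limma, and limma voom on the recovered reads also called 0 lower. Both MYCN KD values were above both Ctrl values for 5 of the 10 genes, against 40.4% of all tested genes, and below for 3, against 35.8%. The groups overlapped for GAP43 and NEFL. The median log2 fold change of the 10 genes was 0.18, beside 0.03 over all tested genes, whose quartiles were -0.23 and 0.29. It was 0.0981 without Ctrl replicate 1 and 0.101 without MYCN KD replicate 1, and 0.265 and 0.262 without replicate 2 of Ctrl and of MYCN KD. The 10 genes are thus a divided list, with 4 called changes well beyond the upper quartile of all genes, MAP2 close to that quartile and 5 genes inside the quartiles.

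**Figure D4:**
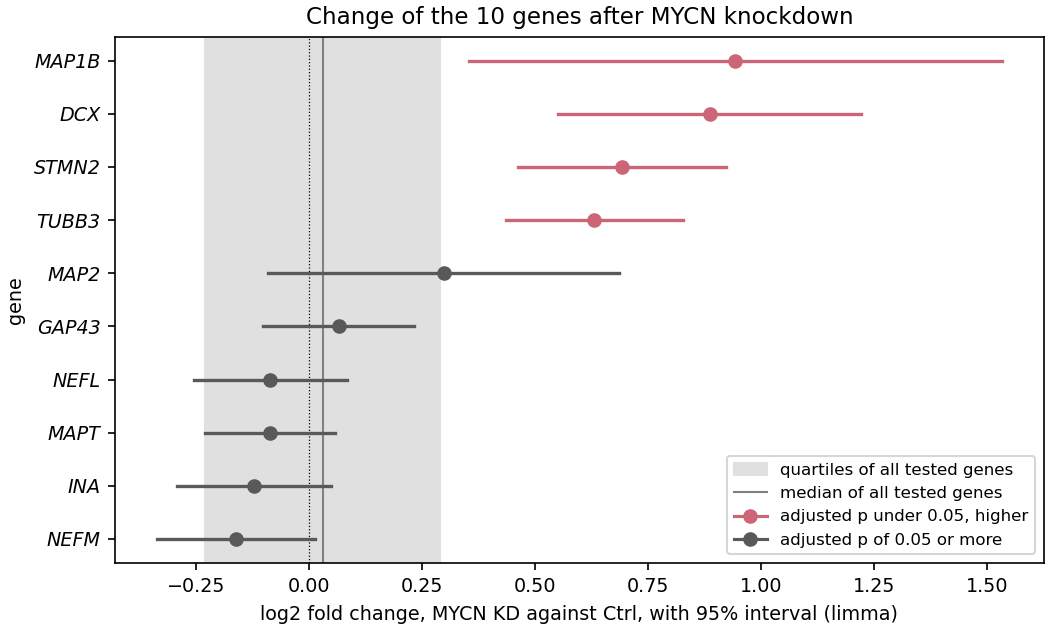
Log2 fold change (MYCN KD against Ctrl, on the log2(RPKM + 1) scale) of the 10 genes with 95% confidence intervals from limma (n = 2 per condition), over a grey band for the quartiles of all tested genes (-0.23 to 0.29). The intervals of MAP1B, DCX, STMN2 and TUBB3 lie wholly above 0.3, while those of the other 6 genes include 0.

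A further 126 genes that act with these, in 9 lists by function, were counted in the same way. Those lists were likewise chosen with earlier results of these data known. Of the 107 that were tested, 50 rose, 14 fell and 43 did not pass the test, with a median log2 fold change of 0.29, where 25.3% of all tested genes rose and 22.8% fell. Of 21 tested microtubule-associated proteins, doublecortin kinases and collapsin response mediators, 11 rose and 1 fell. CAMSAP3, which binds the minus ends of microtubules, rose from 2.60 and 2.61 RPKM to 6.25 and 6.23 RPKM (log2 fold change 1.01, limma adjusted p = 0.00359), TPPP3, a tubulin polymerisation factor, rose by 0.95, and MAP6D1 fell by 0.76 on the log2 scale. Of 17 tested tubulins and folding cofactors, 6 rose and 2 fell. Beside TUBB2A, TUBA1A, the alpha tubulin of developing neurons, rose from 1021 and 1009 RPKM to 1873 and 1894 RPKM, whereas TUBA4A fell by 0.61 and the cofactor TBCE by 0.27 on the log2 scale. Reads of alpha tubulin paralogs can be shared, so the level of TUBA1A is uncertain.

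Of 15 tested axonal motors, 10 rose and 5 did not pass the test, with a median log2 fold change of 0.45. The kinesins KIF5A, a neuronal motor of axonal transport, and KIF3C rose by 0.96 and 0.93. Among 22 tested growth cone and actin genes, 11 rose and 4 fell. The cell adhesion molecule L1CAM rose from 213.6 and 196.4 RPKM to 380.3 and 412.1 RPKM (log2 fold change 0.95, limma adjusted p = 0.00489) and CAP1, an actin regulator, by 0.65, while ENAH, which promotes actin filament growth, and ABLIM1 fell by 0.77 and by 0.68. Of 7 tested ankyrins and spectrins, which form the skeleton under the axonal membrane, 3 rose, with SPTAN1 and SPTBN1 at 0.54 and 0.53, and 2 fell, among them SPTB by 0.69. These lists thus held genes that moved in both directions, apart from the motors, where those called were higher.

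Of the 8 tested other intermediate filament genes and lamins, 4 rose and 3 fell. Beside the genes above, the nuclear lamina gene LMNA rose by 0.74, and LMNB1 fell by 0.55 on the log2 scale. Of 10 tested kinases and regulators that act on tau and doublecortin, 1 rose and 1 fell, both activators of the kinase CDK5. CDK5R2 rose from 67.9 and 60.6 RPKM to 93.9 and 104.9 RPKM, and CDK5R1 fell from 2.36 and 2.57 RPKM to 1.82 and 1.68 RPKM. Of 4 tested genes for RNA-binding and silencing factors, ELAVL4, a neuronal RNA-binding protein known to stabilise GAP43 RNA, rose from 12.4 and 14.8 RPKM to 32.8 and 27.7 RPKM (log2 fold change 1.10, limma adjusted p = 0.00998). ELAVL3 rose by 0.53, and the ubiquitous ELAVL1 fell by 0.21. Of 3 tested stathmins, STMN3 and STMN4 rose.

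**Figure D5:**
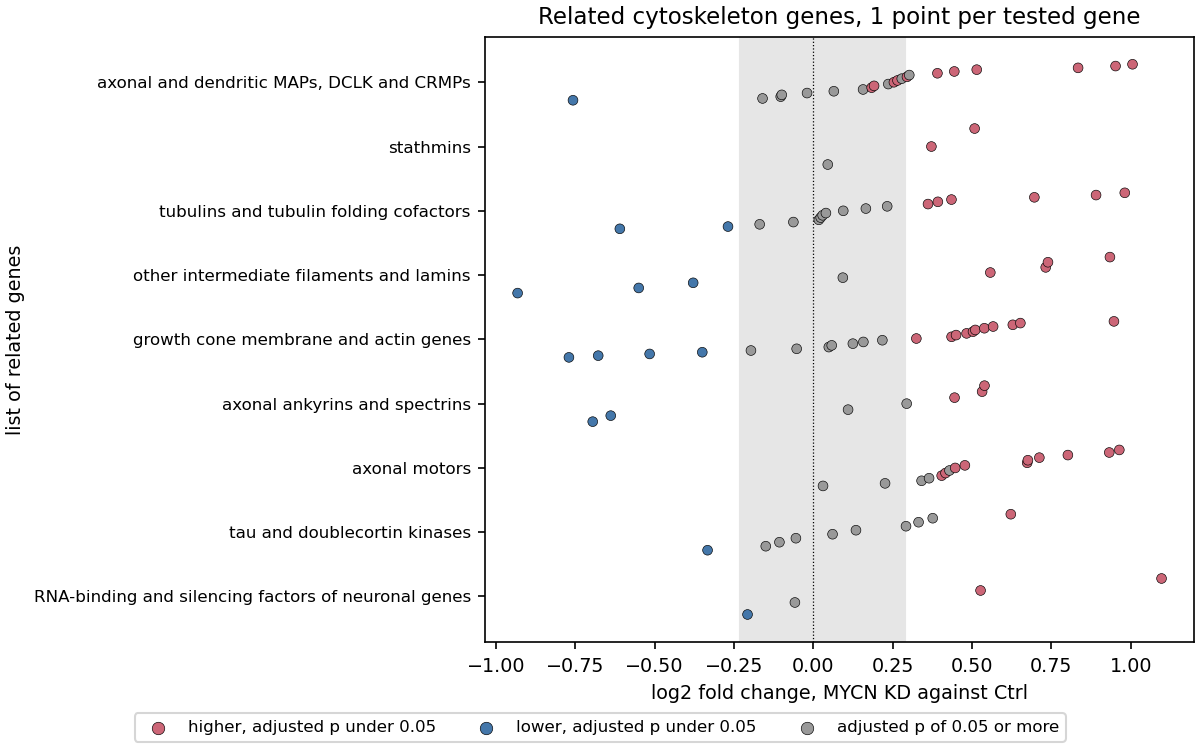
Log2 fold change (MYCN KD against Ctrl) of each tested gene in the 9 lists of related genes, 1 point per gene, coloured by direction where the adjusted p was under 0.05, with a grey band for the quartiles of all tested genes (-0.23 to 0.29). Called motors lie to the right of 0, while the lists of other intermediate filaments, of growth cone and actin genes, and of ankyrins and spectrins hold called genes on both sides.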

How the data were processed

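RNA-seq was measured in 4 samples of BE(2)C cells, 2 of Ctrl and 2 of MYCN KD, grouped by the sample labels. The authors aligned reads to hg19 (HISAT2 2.1.0 in the submitters' processing notes), counted them on RefSeq genes with featureCounts and passed the counts through DESeq2 and then RUVSeq, which takes out unwanted variation. The authors deposited the resulting RPKM, 1 file per sample. The RUVSeq variant and strand setting are not given in the sources used here.

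From the RPKM steps, the totals and each gene's reads and exon length were recovered (100.00% of 19908 genes above 0 gave reads within 0.002 of a whole number). Whether the totals count mapped or normalized reads was not tested, and counting error is only part of the error, since the reads had been adjusted. Lengths were set beside GENCODE release 44 lifted to GRCh37, which also gave the positions. Promoter windows came from RefSeq on GRCh38.p14.

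Genes whose mean RPKM was 1 or more were fitted as log2(RPKM + 1) with limma 3.58.1 (R 4.3.3; lmFit, eBayes with a trend, no block), with Benjamini-Hochberg adjustment over 11411 genes and a threshold of 0.05. This scale understates changes of low genes. The fit was tested on simulated data, where the share of false calls was above the threshold. Tables and plots were made in Python 3.11.15 with pandas 2.3.3, scipy 1.17.1, numpy 2.4.6 and matplotlib 3.10.9.

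The 10 genes and the lists of related genes and markers were chosen with earlier results of these data known. Named were all 10 genes, MYCN, their paralogs, and from each related list up to 2 genes per direction with the largest changes past the threshold without overlap of the groups. Genes under the filter, such as REST, were not tested, and a gene that the rule named is not reported here. Alternatives were another pseudocount (0.1), other filters (none, or a mean RPKM of at least 5), 3 other scalings, the replicate block, eBayes with no trend, and each sample left out. Added after seeing the data were a crossed block, voom on the recovered reads, leaving out genes of inflated length, and reads not divided by the totals.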

Additional observations from a re-analysis of the deposited data

How the results depend on the processing

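With 2 samples per condition, the fit counts 2 residual degrees of freedom, and exact permutation tests cannot pass. Replicate deviations in the 2 conditions were near mirror images (correlation -0.98 over the tested genes), whereas the fit takes them as independent. SEs, confidence intervals and adjusted p-values may therefore be too small. The direction of TUBB3, MAP1B, STMN2 and DCX, and the calls of TUBB3, STMN2 and DCX, were the same under all alternatives run. Of 153 recomputed values of single genes, 144 kept their direction and side of the threshold. These 153 leave out the crossed block, under which 6 of the 10 genes were called higher and 4 lower. Of 108 counts and medians, where the counts include that block, 97 stayed close to the value given (counts within 1.5 times, medians within the spread between replicates). From 3 to 6 of the 10 genes were called higher. On simulated data, with independent replicates and the same extra spread for all genes, false calls were more frequent than the threshold allows. Adjusted p-values are therefore likely too small. By how much in these data was not tested, since the simulated replicates were not mirror images. With reads not divided by the totals, 3 were called lower, their median log2 fold change was 0.0445, GAP43 turned to -0.073 (adjusted p = 0.198), 33 related genes were higher, and 1898 of all genes were higher and 3598 lower. With median-of-ratios scaling 1 gene, NEFM, was called lower (-0.19, limma adjusted p = 0.0435). With quantile normalization NEFL turned to 0.00315. Under a mean RPKM of at least 5, 1868 of all genes were higher. Quantile normalization moved the split of all calls to 2883 higher and 3000 lower, against 2890 and 2599. The causes were not tested.

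The replicate numbers are in the labels, but nothing says that they mark a shared culture or day. Deviations of replicate 1 in Ctrl and in MYCN KD correlated at -0.98 over the tested genes, and all 10 genes deviated in opposite directions. The values were deposited after RUVSeq, and whether that step left such mirror images was not tested. With no stated pairing, the samples were treated as sharing only a number. With the replicate block, 4 of the 10 genes were called higher and 0 lower, as without it, and 2077 and 1851 of all genes. With the pairing crossed, 6 of the 10 genes were called higher and 4 lower, as were 81 and 26 of the related genes and 5910 and 5262 of all genes.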
